A study of Arabidopsis thaliana with 5 samples.

Results

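This account describes 32 Arabidopsis thaliana genes of the core cell cycle machinery, compared between seedlings of the Atino80-5 mutant and of wild type. They were taken by locus number: 23 A-, B- and D-type cyclins, the cyclin-dependent kinases (CDKs) CDKA;1 and CDKB, and the kinase inhibitors KRP1, KRP2, SIM and SMR1. A probe was matched to 31 of the 32, out of 26657 genes and unnamed transcripts that were tested. No probe was matched to CYCD5;1 (AT4G37630), which has no value here.

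A CDK is active only when bound to a cyclin, and plant cells step through division as one set of cyclins replaces another. D-type cyclins with CDKA;1 phosphorylate the retinoblastoma protein RBR1 in G1 and so release the E2F factors that start DNA synthesis. A3-type cyclins act in S phase, A1- and A2-type cyclins from S phase to mitosis, and B-type cyclins with the plant-specific CDKB kinases in G2 and mitosis. The KRP and SIM/SMR proteins bind the cyclin-CDK complexes and lower their activity. In a seedling, division is concentrated in the root and shoot meristems, in young leaves and in the stomatal lineage, and many other cells leave mitosis and enter endoreduplication, repeated DNA synthesis without division.

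The samples were whole seedlings 12 days old, grown on MS medium in long days, 2 arrays of wild type and 3 of Atino80-5. The mutant is named for INO80, a chromatin remodelling ATPase. The kind of mutation, the accession it was made in and the number of seedlings behind each array are not given in the sources used here. Nor is it stated whether each array held seedlings grown apart from the others. The p-values therefore reflect the spread among these 5 arrays alone, and that spread may be technical. RNA came from whole seedlings, so a change in the number of dividing cells and a change in RNA per cell cannot be told apart.

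On each array 77.3% to 81.6% of the probes were well above background, and all 31 genes were well above background on all 5 arrays. The number of arrays limits the precision. Values are given as scaled signal, the background-subtracted spot intensity with the 75th percentile of each array set to 1000. Probes differ in how brightly they report, so signals are compared between arrays and not between genes. A change is the mutant mean minus the wild type mean in log2 units with its standard error (SE, 2 and 3 arrays), tested with limma, and adjusted p-values are by Benjamini and Hochberg over all genes, with 0.05 as the threshold. The INO80 probe A_84_P20358 had scaled signals of 2096 and 2067 on the wild type arrays against 13.9, 11.9 and 13.1 on those of Atino80-5, which separates the labelled genotypes. The second INO80 probe, A_84_P835513, went the other way, from 29.3 and 27.5 in wild type to 112.5, 104.3 and 101.9 in Atino80-5. The position of the probes with respect to the mutation is not given in the sources used here.

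Of the 31 genes, 16 were higher in Atino80-5, 5 were lower and 10 were not called. Together 67.7% were called, against 57.1% of all genes tested. The share called higher was 51.6%, against 30.7% of all genes, and the share called lower was 16.1%, against 26.4%. The median log2 change was 0.14, against 0.0071 for all genes. The changes were small: 0 of the 31 reached 2-fold, where 7.23% of all genes were called at that size, and 3 of 31, or 9.68%, were called at 1.5-fold or more, against 16.2% of all genes. For 24 of the 31, or 77.4%, the mutant and wild type values were fully apart, close to the 74.6% of all genes. No test was made of the group against other genes.

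**Figure D1:**
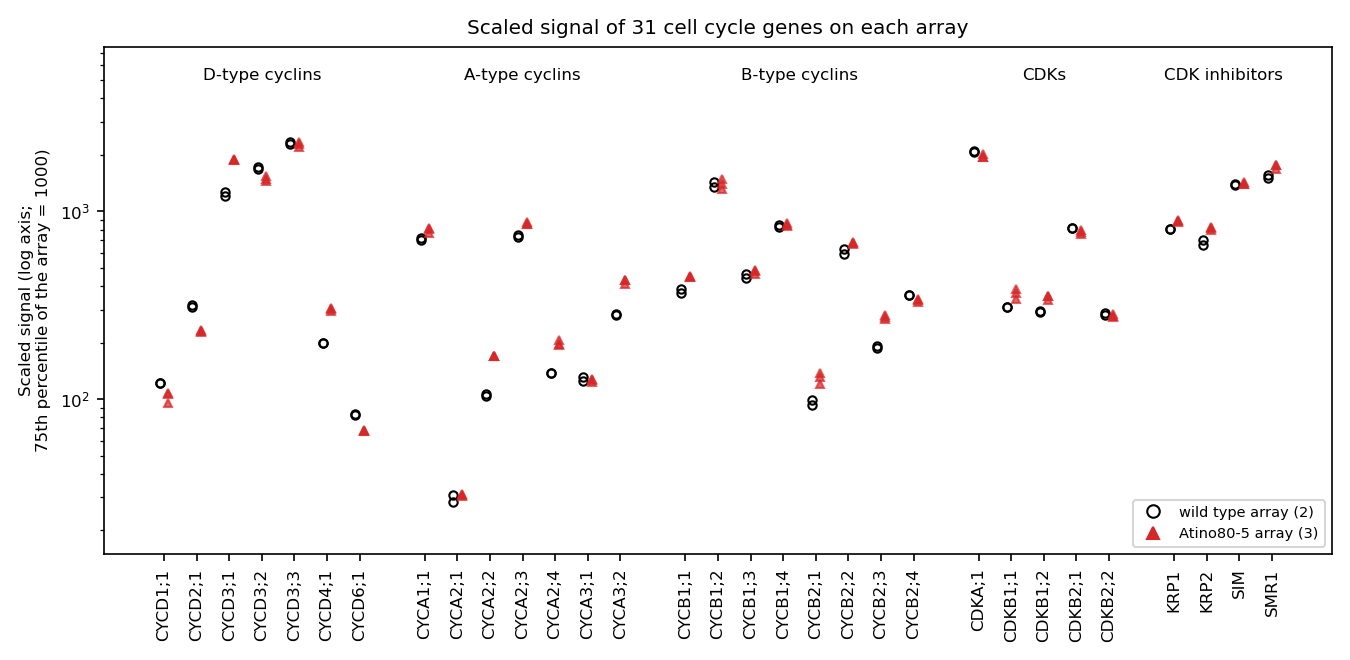
Scaled signal (log axis, 75th percentile of the array = 1000) of the 31 measured genes on each of the 2 wild type arrays (open circles) and 3 Atino80-5 arrays (red triangles), by class. Heights are comparable between arrays of a gene and not between genes. Among the clearest steps are the rise of CYCA2;2 and the fall of CYCD2;1.

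The D-type cyclins, which link growth signals to entry into S phase, went in opposite directions. Of the 7 measured, 2 rose, 4 fell and 1 was not called, and their median log2 change was -0.18. The share called was 85.7%, where over all genes 57.1% were called, 30.7% as higher and 26.4% as lower. CYCD3;1 (AT4G34160), a cytokinin- and sugar-responsive cyclin that holds cells in the mitotic cycle, had signals of 1207 and 1269 in wild type and 1902, 1885 and 1879 in Atino80-5. All 3 mutant arrays lay above both wild type arrays. It rose by 0.61 ± 0.033, or 1.53-fold (adjusted p = 0.00023). CYCD4;1 (AT5G65420), whose subfamily acts in root and stomatal lineage divisions, had signals of 199.9 and 199.2 in wild type and 301.9, 296.0 and 307.3 in Atino80-5. The genotypes did not overlap, and the gene rose by 0.60 ± 0.029, or 1.51-fold (adjusted p = 0.00017).

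The D-type cyclin with the largest fall was CYCD2;1 (AT2G22490), a sucrose-responsive cyclin with a role in lateral root formation. Its signals were 315.9 and 309.3 in wild type and 232.2, 227.8 and 232.0 in Atino80-5. Each mutant array was below each wild type array, and the gene fell by 0.44 ± 0.027, or 1.36-fold (adjusted p = 0.00034). CYCD6;1 (AT4G03270) drives the formative division that separates cortex from endodermis in the root, under SHR and SCR. Its signals were 82.8 and 83.3 in wild type and 68.0, 68.9 and 68.0 in Atino80-5. It fell by 0.28 ± 0.025, or 1.22-fold (adjusted p = 0.00093), again without overlap. CYCD1;1 (AT1G70210), a cyclin active early in germination, fell by 0.24 ± 0.065, or 1.18-fold (adjusted p = 0.031). Mutant array 1 was the lowest at 94.9, with 107.3 and 106.8 on the other mutant arrays and 121.8 on both of wild type. The call was lost without wild type array 1 or wild type array 2 (adjusted p = 0.12 and 0.12).

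The CYCD3 subfamily, whose members act together in shoot cell number, was split. Against the rise of CYCD3;1, CYCD3;2 (AT5G67260) had signals of 1713 and 1671 in wild type and 1485, 1551 and 1444 in Atino80-5. It fell by 0.18 ± 0.041, or 1.13-fold (adjusted p = 0.019), with no overlap, and the call was lost without wild type array 1, wild type array 2 or Atino80-5 array 1 (adjusted p = 0.10, 0.066 and 0.052). CYCD3;3 (AT3G50070) had signals of 2335 and 2288 in wild type and 2212, 2282 and 2345 in Atino80-5. Its arrays overlapped and it was not called (log2 change -0.020 ± 0.036, adjusted p = 0.66).

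A-type cyclins were mostly higher. Of 7, 5 rose, 0 fell and 2 were not called, with a median log2 change of 0.22. Before adjustment limma also gave 0 lower of the 7 at 0.05. The share called was 71.4%, where over all genes 57.1% were called, 30.7% as higher and 26.4% as lower. The A2 subfamily works with CDKB1;1 to restrain endoreduplication. CYCA2;2 (AT5G11300) had the largest rise of all 31 genes, with signals of 103.6 and 107.0 in wild type and 170.7, 169.7 and 170.1 in Atino80-5. The 3 mutant arrays were nearly equal and all above wild type. It rose by 0.69 ± 0.028, or 1.62-fold (adjusted p = 0.00011). CYCA2;4 (AT1G80370) had signals of 138.1 and 138.6 in wild type and 193.8, 205.7 and 196.9 in Atino80-5. It rose by 0.52 ± 0.036, or 1.44-fold (adjusted p = 0.00045) and did not overlap. CYCA2;3 (AT1G15570), the member for which the restraint of endoreduplication is best described, had signals of 748.6 and 730.0 in wild type and 855.6, 861.3 and 873.9 in Atino80-5. The step was smaller than for its relatives, and the gene rose by 0.22 ± 0.028, or 1.17-fold (adjusted p = 0.0027). A second CYCA2;3 probe rose by 0.27. CYCA2;1 (AT5G25380) had signals of 28.3 and 30.8 in wild type and 30.5, 30.9 and 31.4 in Atino80-5. These overlapped, and it was not called (log2 change 0.067 ± 0.045, adjusted p = 0.26).

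The 2 S-phase cyclins measured gave different results. CYCA3;2 (AT1G47210) had signals of 283.8 and 281.5 in wild type and 410.2, 432.6 and 429.0 in Atino80-5. It rose by 0.58 ± 0.035, the fourth largest rise of the 31 (adjusted p = 0.00030), and its second probe rose by 0.56. CYCA3;1 (AT5G43080) had signals of 124.5 and 130.9 in wild type and 123.1, 126.9 and 128.3 in Atino80-5. These overlapped, and it was not called (log2 change -0.018 ± 0.037, adjusted p = 0.71). CYCA1;1 (AT1G44110), the A1-type member, had signals of 707.7 and 721.3 in wild type and 811.2, 764.5 and 810.4 in Atino80-5. It rose by 0.15 ± 0.039, or 1.11-fold (adjusted p = 0.026), a small change. The call was lost within slide 1 (adjusted p = 0.069), with median scaling (log2 change 0.096, adjusted p = 0.084), and without wild type array 1, wild type array 2, Atino80-5 array 1 or Atino80-5 array 3 (adjusted p = 0.13, 0.088, 0.063 and 0.069).

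**Figure D2:**
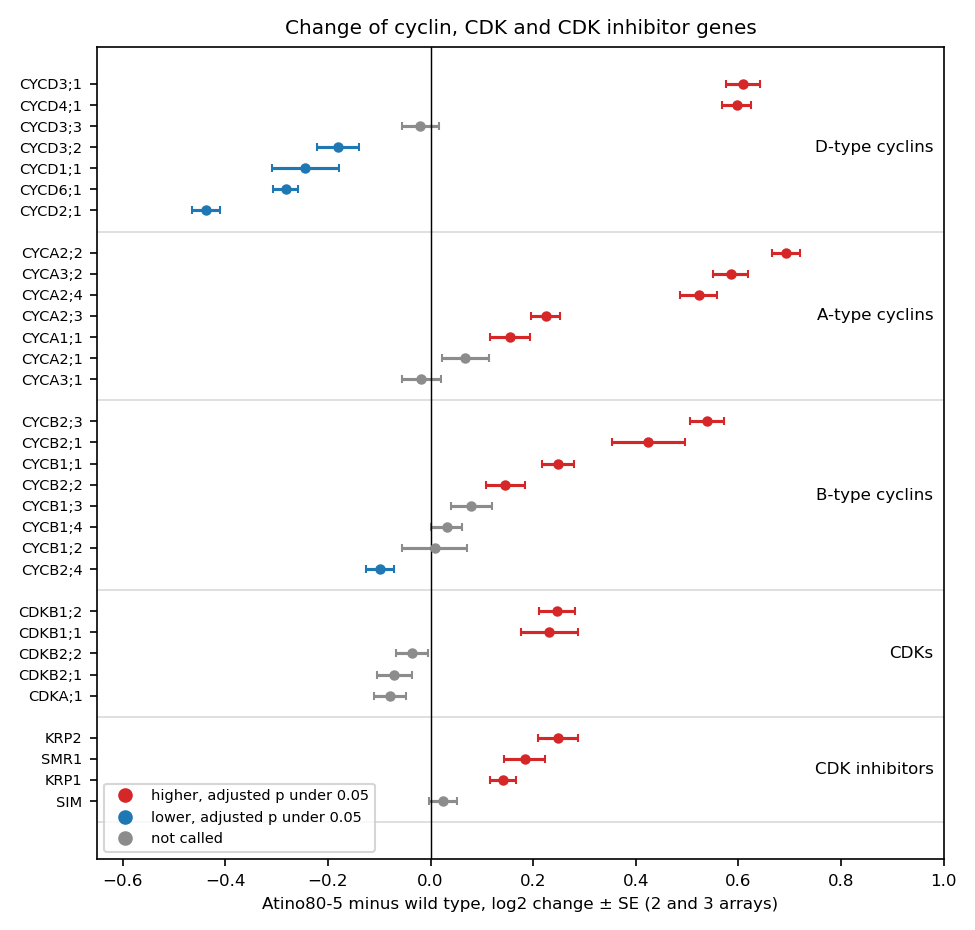
Log2 change of each measured gene, Atino80-5 minus wild type, with its standard error (2 and 3 arrays), by class. Red and blue mark adjusted p under 0.05. D-type cyclins lie on both sides of 0, A-type cyclins between -0.018 and 0.69, and CDKA;1 and both CDKB2 genes just below 0 without a call.

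B-type cyclins, which accumulate in G2 and are destroyed in mitosis, included both rises and a fall. Of the 8, 4 rose, 1 fell and 3 were not called, with a median log2 change of 0.11. The 62.5% called is near the 57.1% of all genes. In the CYCB2 subfamily all 4 were called. CYCB2;3 (AT1G20610) had signals of 186.5 and 192.1 in wild type and 275.3, 281.2 and 268.7 in Atino80-5. All mutant arrays were far above wild type for this gene, which rose by 0.54 ± 0.034, or 1.45-fold (adjusted p = 0.00034). CYCB2;1 (AT2G17620) had signals of 93.1 and 99.5 in wild type and 120.0, 137.6 and 130.5 in Atino80-5. The mutant arrays varied more among themselves, still above both of wild type, and the gene rose by 0.42 ± 0.071, or 1.34-fold (adjusted p = 0.0072). CYCB2;2 (AT4G35620) had signals of 595.6 and 632.9 in wild type and 690.1, 678.8 and 669.1 in Atino80-5. It rose by 0.15 ± 0.038, or 1.11-fold (adjusted p = 0.029), a call lost with median scaling (log2 change 0.087, adjusted p = 0.12), within slide 1 (adjusted p = 0.054), with quantile normalization (adjusted p = 0.051) and without wild type array 1, Atino80-5 array 1, Atino80-5 array 2 or Atino80-5 array 3 (adjusted p = 0.13, 0.071, 0.079 and 0.054). CYCB2;4 (AT1G76310) had signals of 359.4 and 358.2 in wild type and 339.7, 329.7 and 336.5 in Atino80-5. It fell by 0.098 ± 0.027, or 1.07-fold (adjusted p = 0.034). The call was lost within slide 1 (adjusted p = 0.078), with normexp background correction (adjusted p = 0.15) and without wild type array 1, wild type array 2, Atino80-5 array 2 or Atino80-5 array 3 (adjusted p = 0.14, 0.13, 0.096 and 0.078), and median scaling gave a larger fall of 0.16.

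Of the CYCB1 subfamily 1 of 4, or 25.0%, was called, against 57.1% of all genes, and their median log2 change was 0.055. CYCB1;1 (AT4G37490) is the usual marker of cells in G2 and M, and its transcript is also induced by DNA double-strand breaks. Its signals were 369.2 and 386.4 in wild type and 447.6, 450.8 and 447.4 in Atino80-5. The mutant arrays were nearly equal and above wild type, and the gene rose by 0.25 ± 0.031, or 1.19-fold (adjusted p = 0.0028). CYCB1;2 (AT5G06150) had signals of 1354 and 1425 in wild type and 1483, 1308 and 1405 in Atino80-5. The mutant arrays lay above, below and between those of wild type (log2 change 0.0082 ± 0.064, adjusted p = 0.92). CYCB1;3 (AT3G11520) and CYCB1;4 (AT2G26760) had log2 changes of 0.080 ± 0.040 and 0.031 ± 0.030 and were not called (adjusted p = 0.15 and 0.42). Whether the subfamilies differ was not tested.

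Among the kinases, the CDKB1 pair rose and the others were not called. The 40.0% called is below the 57.1% of all genes. CDKA;1 (AT3G48750), the kinase that partners D- and A-type cyclins through the whole cycle, had signals of 2096 and 2083 in wild type and 1953, 2029 and 1951 in Atino80-5. The mutant arrays were slightly lower without overlap, and the gene was not called (log2 change -0.079 ± 0.031, adjusted p = 0.086). With median scaling it passed the threshold as lower (log2 change -0.14, adjusted p = 0.021). CDKB1;1 (AT3G54180), the partner of the A2 cyclins, had signals of 310.2 and 309.7 in wild type and 342.7, 366.5 and 383.8 in Atino80-5. It rose by 0.23 ± 0.055, or 1.17-fold (adjusted p = 0.022), and the call was lost without wild type array 1, wild type array 2 or Atino80-5 array 2 (adjusted p = 0.095, 0.096 and 0.067). CDKB1;2 (AT2G38620) had signals of 295.5 and 290.3 in wild type and 335.8, 353.3 and 353.2 in Atino80-5. It rose by 0.25 ± 0.036, or 1.19-fold (adjusted p = 0.0045), and its second probe rose by 0.26. These 2 rises are of similar size, and both genes were clear of wild type on every mutant array.

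The CDKB2 kinases, which peak at G2 to mitosis and are needed for meristem organisation, were not called. CDKB2;1 (AT1G76540) had signals of 815.8 and 815.6 in wild type and 799.7, 754.7 and 776.7 in Atino80-5. The mutant arrays were all lower by a small step (log2 change -0.071 ± 0.035, adjusted p = 0.15). The gene passed the threshold as lower with median scaling (log2 change -0.13, adjusted p = 0.028). CDKB2;2 (AT1G20930) overlapped between genotypes and was not called (log2 change -0.036 ± 0.032, adjusted p = 0.38).

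Of the 4 CDK inhibitors, 3 rose and 1 was not called. For comparison, 57.1% of all genes were called, 30.7% as higher and 26.4% as lower. The calls of KRP1, KRP2 and SMR1 were each lost in 1 or more of the alternatives described below, so the count of 3 is not stable. KRP2 (AT3G50630), which auxin lowers when lateral roots start, had signals of 662.3 and 705.2 in wild type and 820.9, 798.3 and 816.0 in Atino80-5. It rose by 0.25 ± 0.038, or 1.19-fold (adjusted p = 0.0056). KRP1 (AT2G23430), an inhibitor of CDKA;1 with D-type cyclins, had signals of 807.1 and 802.4 in wild type and 894.8, 879.2 and 888.6 in Atino80-5. It rose by 0.14 ± 0.025, or 1.10-fold (adjusted p = 0.0086), and with normexp background correction the log2 change was 0.070 and not called (adjusted p = 0.17). The KRP1 call was also lost without wild type array 1 or wild type array 2 (adjusted p = 0.051 and 0.058). SMR1 (AT3G10525), which promotes endoreduplication in giant cells of the epidermis, had signals of 1552 and 1500.3 in wild type and 1671, 1775 and 1756 in Atino80-5. It rose by 0.18 ± 0.040, or 1.14-fold (adjusted p = 0.016), and the call was lost without wild type array 1, wild type array 2 or Atino80-5 array 2 (adjusted p = 0.052, 0.092 and 0.051). SIM (AT5G04470), which keeps trichomes from dividing, had signals of 1384 and 1394 in wild type and 1393, 1435 and 1407 in Atino80-5. These overlapped, its 2 probes gave log2 changes of 0.024 and 0.013, and it was not called.

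Arranged by phase, the genes acting from S phase to mitosis (CYCA1;1, the CYCA2 genes and the CDKB1 pair) had 6 of 7 higher and 0 lower, with a median log2 change of 0.23. All 7 had a log2 change above 0, so limma gave 0 lower before adjustment too. The G1 group of D-type cyclins had 2 higher and 4 lower. The group of G2 and mitosis (B-type cyclins and CDKB2) had 4 of 10 higher and 1 lower, with a median of 0.055. Over all genes 30.7% were called higher and 26.4% lower. The groups are small, and differences between them were not tested.

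The slide was the batch found in the file headers: slide 1 held the wild type arrays with arrays 1 and 2 of Atino80-5, and slide 2 held only the third Atino80-5 array. Within slide 1 all 21 called genes kept their direction and 18 of them their call. There CYCD3;1 had a log2 change of 0.61, CYCA2;2 of 0.69 and CYCD2;1 of -0.44. Over 16 alternatives in processing, 12 of the 21 genes kept their call in each. The other 9 lost it in 1 or more and kept their direction in all 16. They are the 8 genes for which a lost call is given above with its adjusted p, and KRP2, which lost it only with the replicate number as a block. Without wild type array 1 or 2, the 5 genes called lower became 2.

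**Figure D3:**
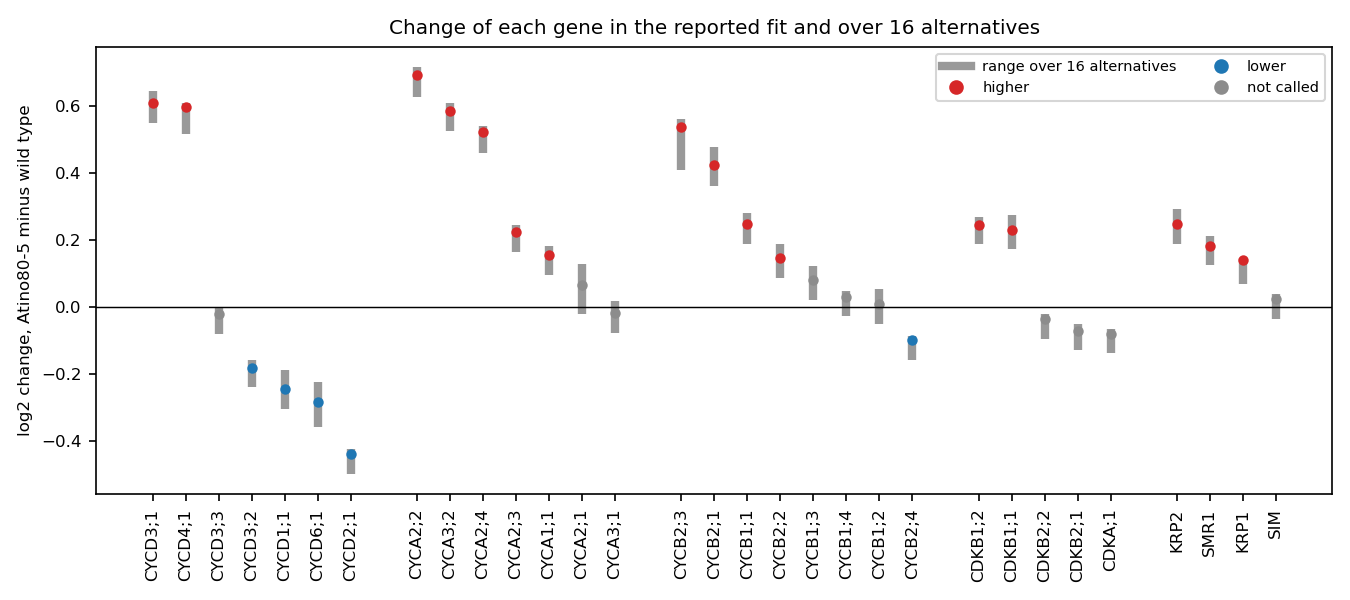
Log2 change of each measured gene as reported (points, coloured by call) and its range over 16 alternatives in processing (grey bars). The bar of CYCA2;2 runs from 0.63 to 0.72 and that of CYCD2;1 from -0.50 to -0.42, and the bars that cross 0 belong to genes that were not called.

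Further genes of the cycle were taken by locus in 7 lists, 66 genes in all, of which 64 were measured. Of these 27 were higher, 6 lower and 31 not called, with a median log2 change of 0.099. The 51.6% called among them is below the 57.1% of all genes. Without wild type array 1 the 27 became 17, and without wild type array 2 or Atino80-5 array 2 it was 18. Of the 7 cyclins outside the main set, 6 were measured, and 3 rose and 1 fell, or 66.7% called. CYCA1;2 (AT1G77390), the cyclin TAM that is needed in meiosis, had signals of 119.9 and 127.7 in wild type and 204.4, 202.2 and 202.9 in Atino80-5. The genotypes were far apart, and it rose by 0.72 ± 0.037, or 1.64-fold (adjusted p = 0.00020). CYCD4;2 (AT5G10440) and CYCB3;1 (AT1G16330) rose by 0.27 ± 0.036 and 0.26 ± 0.046. CYCA3;4 (AT1G47230), a relative of the S-phase cyclins above, fell by 0.26 ± 0.027. CYCB1;5 (AT1G34460) and CYCD7;1 (AT5G02110), the second a cyclin of the guard cell lineage, were not called (log2 changes 0.011 ± 0.12 and 0.14 ± 0.075). CYCA3;3 (AT1G47220) was not well above background on any array.

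The remaining KRP genes held the largest fall of any cycle gene listed. KRP6 (AT3G19150), an inhibitor known for its removal by F-box proteins in the male germ line, had signals of 556.2 and 574.0 in wild type and 176.8, 170.8 and 178.9 in Atino80-5. Each mutant array was far below both of wild type. It fell by 1.69 ± 0.034, or 3.22-fold (adjusted p = 2.9e-05). The other KRP genes did not fall with it. KRP7 (AT1G49620), KRP3 (AT5G48820) and KRP5 (AT3G24810) rose by 0.41 ± 0.086, 0.34 ± 0.038 and 0.21 ± 0.042, and KRP4 (AT2G32710) was not called (log2 change -0.065 ± 0.039, adjusted p = 0.21). The KRP7 call was lost without wild type array 1, wild type array 2 or Atino80-5 array 2 (adjusted p = 0.073, 0.071 and 0.050), and the KRP5 call without wild type array 1 (adjusted p = 0.075). Of the 5 KRP genes here 3 rose and 1 fell, and with KRP1 and KRP2 the family has 5 of 7 higher. Over all genes 30.7% were called higher. The calls of KRP1, KRP2, KRP5 and KRP7 were each lost in 1 or more alternatives.

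The same list holds 7 further loci taken beside SIM and SMR1, of which 6 were measured, and no probe was matched to SMR5. SMR4 (AT5G02220) rose by 0.35 ± 0.037. SMR7 (AT3G27630), which DNA damage induces through SOG1, rose by 0.13 ± 0.040 (adjusted p = 0.045), a call lost with median scaling (adjusted p = 0.20), with quantile normalization (adjusted p = 0.19), within slide 1 (adjusted p = 0.095) and without wild type array 1, wild type array 2, Atino80-5 array 2 or Atino80-5 array 3 (adjusted p = 0.20, 0.096, 0.099 and 0.095). The other 4 loci have no name in the gene table used, and no role is given for them here. AT5G40460 had signals of 274.9 and 277.4 in wild type and 673.0, 712.7 and 693.8 in Atino80-5. It stood far above wild type on each mutant array and rose by 1.33 ± 0.035, or 2.51-fold (adjusted p = 4.6e-05), the largest rise among the cycle lists. AT5G02420 rose by 0.54 ± 0.042, AT1G10690 fell by 0.20 ± 0.031, and AT1G08180 was not called (log2 change 0.097 ± 0.034, adjusted p = 0.066).

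**Figure D4:**
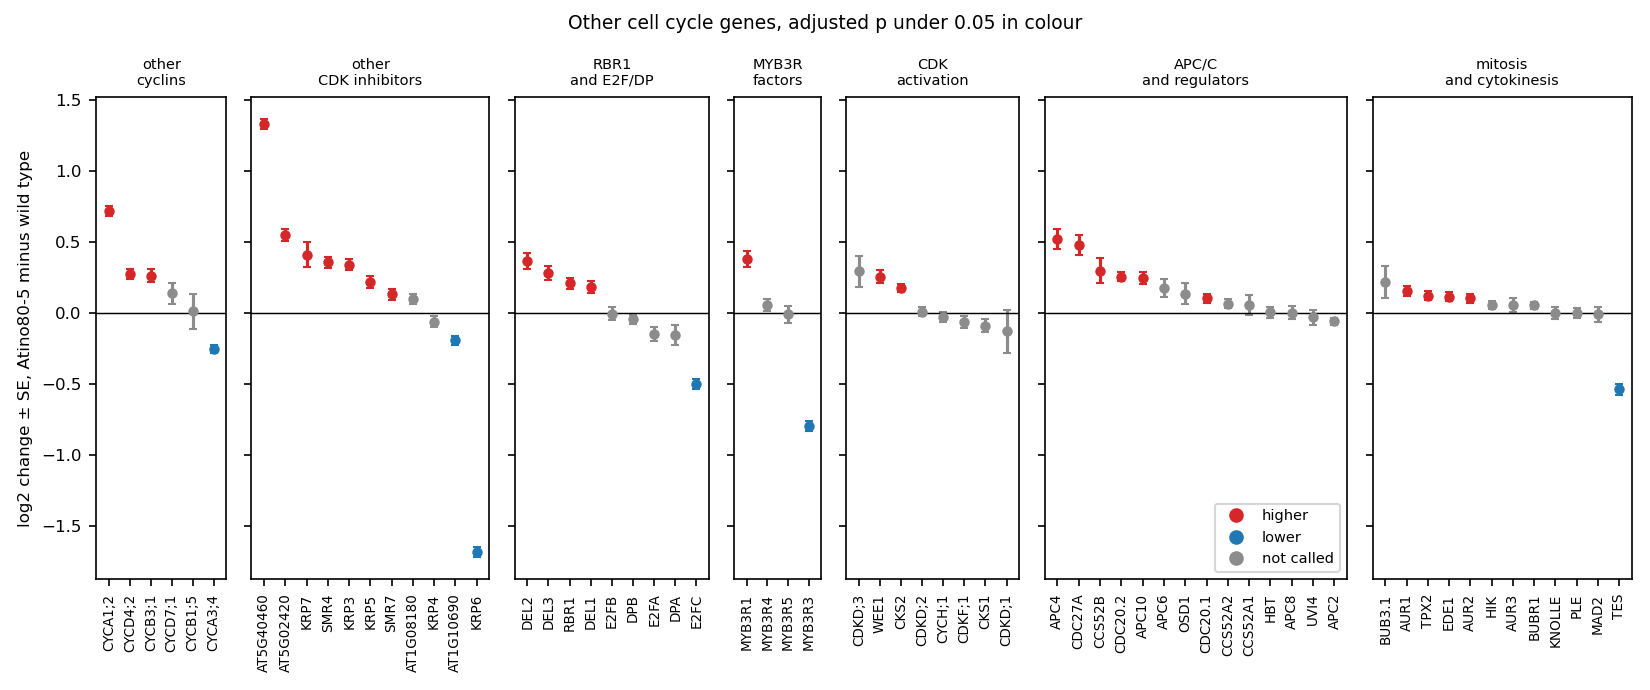
Log2 change with standard error (2 and 3 arrays) of 64 further cell cycle genes in 7 lists, with loci printed where the gene table has no name. Of these, 56 lie within 0.5 of 0, and AT5G40460 at 1.33 and KRP6 at -1.69 lie farthest out.

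Downstream of the D-type cyclins, the 9 genes of RBR1, the E2F and DP factors and the DEL factors had 4 higher, 1 lower and 4 not called. The 55.6% called is near the 57.1% of all genes. RBR1 (AT3G12280), the target of cyclin D kinases, rose by 0.21 ± 0.037 (adjusted p = 0.0089), a call lost with normexp background correction (adjusted p = 0.055) and without wild type array 1 or wild type array 2 (adjusted p = 0.055 and 0.051). The activating factors E2FA (AT2G36010) and E2FB (AT5G22220) were not called (log2 changes -0.15 ± 0.050 and -0.0061 ± 0.044). E2FC (AT1G47870), a repressing E2F, had signals of 273.0 and 283.2 in wild type and 201.1, 197.3 and 190.8 in Atino80-5. The genotypes were well apart, and it fell by 0.50 ± 0.037, or 1.42-fold (adjusted p = 0.00054). The atypical factors DEL1 (AT3G48160), DEL2 (AT5G14960) and DEL3 (AT3G01330) rose by 0.18 ± 0.043, 0.37 ± 0.056 and 0.28 ± 0.050. The DEL1 call was lost with quantile normalization (adjusted p = 0.074), with median scaling (adjusted p = 0.069), within slide 1 (adjusted p = 0.053) and without wild type array 2, Atino80-5 array 2 or Atino80-5 array 3 (adjusted p = 0.10, 0.063 and 0.053), and the DEL3 call without wild type array 2 (adjusted p = 0.055). The dimerisation partners DPA (AT5G02470) and DPB (AT5G03415) were not called (log2 changes -0.16 ± 0.072 and -0.047 ± 0.030).

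The MYB3R factors bind the promoters of G2 and mitosis genes such as the B-type cyclins. MYB3R1 (AT4G32730), with activating and repressing roles, rose by 0.38 ± 0.057. The repressor MYB3R3 (AT3G09370) had signals of 125.3 and 127.1 in wild type and 70.7, 74.8 and 72.6 in Atino80-5. It lay below wild type on each mutant array and fell by 0.80 ± 0.035, or 1.74-fold (adjusted p = 0.00013). The activator MYB3R4 (AT5G11510) and the repressor MYB3R5 (AT5G02320) were not called (log2 changes 0.054 ± 0.040 and -0.011 ± 0.059). Among 8 genes of CDK activation and binding, 2 were higher and 0 lower, and limma gave 0 lower before adjustment at 0.05. The 25.0% called is below the 57.1% of all genes. The CDK subunit gene CKS2 (AT2G27970) rose by 0.17 ± 0.027 and WEE1 (AT1G02970), a kinase that restrains CDKs under replication stress, by 0.25 ± 0.045. CDKD;3 (AT1G18040), a CDK-activating kinase, and CKS1 (AT2G27960) were not called (log2 changes 0.29 ± 0.11 and -0.090 ± 0.043).

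The anaphase-promoting complex destroys mitotic cyclins, and of its 14 subunits and regulators 6 were higher, 0 lower and 8 not called. The 42.9% called is below the 57.1% of all genes, and before adjustment at 0.05 limma also gave 0 lower. Among the 6 are CCS52B and CDC20.1, named after their values were seen, whose adjusted p of 0.041 and 0.046 are close to the threshold and whose single values were not followed through the alternatives. The subunit genes APC4 (AT4G21530), CDC27A (AT3G16320) and APC10 (AT2G18290) rose by 0.52 ± 0.068, 0.48 ± 0.072 and 0.24 ± 0.041, and the activator gene CDC20.2 (AT4G33260) by 0.25 ± 0.033. Of 12 genes of mitosis and cytokinesis 4 were higher, 1 lower and 7 not called, with a median of 0.055. The 41.7% called is below the 57.1% of all genes. Among the 4 is AUR2, named after its values were seen, whose adjusted p of 0.045 is close to the threshold. Its log2 change was 0.10, and 0.049 with normexp background correction. The kinase gene AUR1 (AT4G32830) and the spindle genes TPX2 (AT1G03780) and EDE1 (AT2G44190) rose by 0.15 ± 0.034, 0.12 ± 0.030 and 0.11 ± 0.033. With median scaling these 3 lost their calls (adjusted p = 0.076, 0.14 and 0.23). The AUR1 call was also lost without wild type array 1 or Atino80-5 array 2 (adjusted p = 0.090 and 0.053), the TPX2 call without wild type array 1, wild type array 2, Atino80-5 array 2 or Atino80-5 array 3 (adjusted p = 0.11, 0.097, 0.075 and 0.066) and the EDE1 call without any 1 of the 5 arrays (adjusted p = 0.058 to 0.19). TES (AT3G43210), a kinesin of cytokinesis, fell by 0.54 ± 0.036.

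Markers of the tissues that a seedling holds were read on the same arrays, and all 8 leaf genes and all 13 root genes listed passed the filter on dim probes. PLT1, a root meristem regulator, passed it mainly through the mutant, being well above background on 1 of 2 wild type and 3 of 3 mutant arrays (2.37 and 3.16 in wild type and 6.80, 7.22 and 7.08 in Atino80-5). Its log2 change of 1.36 became 0.37 with normexp background correction, and its rise is no support for the count. Of the 13 root genes 10 were called higher, PLT1 among them, 2 lower and 1 was not called. With PLT1 counted, 92.3% were called, against 57.1% of all genes, and 30.7% of all genes were called higher. The summed scaled signal of the root genes was 2933 to 3014 in wild type and 3478 to 3503 in Atino80-5. Most of that step is from CASP1, an endodermis gene, with 405.9 and 459.5 in wild type and 826.1, 838.7 and 870.3 in Atino80-5. SCR, the largest term of the sum, fell by 0.12 ± 0.030. The root hair genes EXPA18 and PRP3 rose by 1.25 ± 0.045 and 1.08 ± 0.049, the root meristem regulator PLT2 by 1.09 ± 0.026, while WOX5, which marks the quiescent centre, was 2.82-fold lower. With normexp background correction EXPA18, PRP3 and PLT2 rose by 0.90, 0.80 and 0.49, and WOX5 was at -1.20. A second PRP3 probe was not well above background on any array. Of 10 shoot meristem genes 9 were measured, 3 higher and 2 lower, so that 55.6% were called, near the 57.1% of all genes. Their sum was 4990 to 5133 in wild type and 4869 to 5072 in Atino80-5, of which the receptor gene CLV1 alone gave 3259 and 3192 in wild type and 3027, 3115 and 2964 in Atino80-5. PLT1, CASP1, SCR and CLV1 are named after their values were seen. The meristem genes STM and KNAT1 rose by 0.31 ± 0.038 and 0.34 ± 0.041, the boundary genes CUC1 and CUC2 fell by 0.21 ± 0.032 and 0.19 ± 0.036, and WUS was not well above background on any array. With the mean of a gene's probes STM rose by 0.20 and KNAT1 by 0.22, and CUC2 lost its call (adjusted p = 0.65).

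Of 7 stomatal lineage genes 1 was higher and 2 lower, or 42.9% called, with a sum of 5010 to 5088 in wild type and 4500 to 4642 in Atino80-5. SPCH, which starts the lineage, rose by 0.37 ± 0.039, while FAMA and TMM, which act in guard cells and in cell spacing, fell by 0.27 ± 0.025 and 0.27 ± 0.039. EPF1 was not called (log2 change 0.060 ± 0.041). Of 5 trichome genes 1 was higher and 2 lower, or 60.0% called, with a sum of 3058 to 3116 in wild type and 2736 to 2833 in Atino80-5. TRY, a repressor of trichome fate, rose by 0.33 ± 0.031, TTG1 and GL2 fell by 0.16 ± 0.029 and 0.19 ± 0.045, and GL1 was not called (log2 change -0.19 ± 0.084). Of 8 leaf photosynthesis genes 1 was higher and 3 lower, with a sum of 744187 to 746085 in wild type and 674561 to 701319 in Atino80-5. A few bright probes can set each of these sums, and 57.1% of all genes were called. The antenna genes LHCB2.1, LHCB4.1 and LHCB5 had log2 changes of 0.18, -0.31 and -0.12, and the Calvin cycle gene GAPA of -0.19. With quantile normalization the log2 changes of LHCB4.1, LHCB5 and GAPA were -0.23, -0.033 and -0.068 and lost their calls (adjusted p = 0.089, 0.54 and 0.17). With the mean of its probes LHCB2.1 was at 0.013 (adjusted p = 0.81), and with median scaling at 0.12 and still called. Without wild type array 1 LHCB4.1 was at -0.20 (adjusted p = 0.079). The calls of CUC2, TTG1, GL2, GAPA and the 3 antenna genes were also lost without 1 or more of the arrays (adjusted p = 0.052 to 0.17). The part of these lists in the results above was not tested.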

How the data were processed

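Cy3-labelled cRNA from total RNA of whole seedlings was read on 1-colour Agilent arrays, per the labels. The deposited scanner files hold an intensity per spot, background-subtracted and detrended on its own array by Feature Extraction 10.7.3.1, per the file headers. The submitters' processing notes name version 9.1 instead. The deposited value table holds log2 values. Its columns correlated at 0.9994 or more with the scanner's log2 signal, with medians of 9.6208 and 9.6213 in wild type and 9.6216, 9.6213 and 9.6213 in Atino80-5 and a common 75th percentile of 12.15. It was taken to be quantile normalized without centring by gene, and it was used as an alternative only.

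Control spots (1417) and spots marked as outliers (7 to 14 an array) were removed, and 0 probe spots were saturated. Spots of a probe were averaged and each array's 75th percentile (4478 to 4805 in signal) was subtracted in log2 units. A probe stayed in when 2 or more of the 5 arrays had it well above background. Of 43603 probes, 34285 were tied to 1 locus by RefSeq transcripts (TAIR10.1, for names only, as the array's design names another build) and 9318 to none. The brightest such probe stood for its gene. Of the 31 measured genes, 27 had 1 probe and 4 had 2, whose calls were the same. Probe sequences were not used here, so close relatives could share signal. Genotypes were compared with limma 3.58.1 under R 4.3.3, by lmFit followed by eBayes with 3 residual degrees of freedom. Values of second probes come from the same fit over 35203 probes. The code was also run on simulated data with planted changes, a check of the code and not of the calls given here.

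Gene names are those in common use. The gene table lists CYCA2;2 as CYC3B, CYCB1;2 as CYC1BAT, CDKA;1 as CDC2, KRP1 as ICK1 and SMR1 as LGO.

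The 32 genes and all lists were chosen with earlier results of these data known. The genes named are the 32, INO80, all genes of the lists of further cyclins, further inhibitors and RBR1 with E2F, and up to 4 genes of every other list with the smallest p. The planned normexp alternative (offset 50) ran on the median spot signal in place of the mean, which is not among the columns used here.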

Additional observations from a re-analysis of the deposited data

How the results depend on the processing

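The 16 alternatives changed the background correction (normexp), the scaling (quantile, median), the filter (none, all 5 arrays), the probe (mean over a gene), eBayes (trended and robust), the slide (block, slide 1 alone), the replicate number (block), the source (the authors' table) or the arrays (each left out, probes held). The slide block, slide 1 alone and leaving out Atino80-5 array 3 amount to the same fit. Of the 31 genes, 10 were higher and 2 lower with the replicate block, and 15 of the 64 further genes were higher. The replicate numbers were not taken to pair the samples. Same-numbered arrays' deviations from their genotype's mean correlated at 0.038 and 0.005 across genes. The deviations of the wild type arrays mirror each other (correlation -1), so this check is weak and cannot exclude pairing. With no filter on dim probes 3 of the 31 were lower. Leaving out 1 array gave 11 to 14 higher and 2 to 4 lower of the 31, with 11 and 2 without wild type array 1, and 17 to 28 higher of the further genes. Median scaling, which lowers the median change of all genes by 0.059, gave 14 higher and 7 lower of the 31 and 19 and 10 of the further genes, against 27 and 6. Over all genes 42.9% of its calls were higher, against 53.8%. The cause was not tested. Of 93 named genes, 10 changed sign under some alternative, and 0 of these 10 had been called. With quantile normalization and in the authors' table CYCA2;1 was at -0.019 and -0.020 and CYCB1;5 at -0.012 and -0.014. With median scaling CYCB1;2, CYCB1;4, SIM, CYCB1;5 and MYB3R4 were at -0.050, -0.027, -0.035, -0.047 and -0.0045. With normexp CYCB1;2 was at -0.00058 and E2FB at 0.00061. Leaving out 1 array gave CYCA3;1 -0.054 to 0.018, CYCB1;2 -0.035 to 0.055, CYCD3;3 -0.041 to 0.0012, CYCB1;5 -0.099 to 0.071, E2FB -0.034 to 0.027 and MYB3R5 -0.061 to 0.038. The number of arrays, 2 and 3, limits what could be called, and all 31 genes were above background throughout.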
